A study of Homo sapiens with 36 samples.

Results

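The comparison described here is the knockdown of ATF6 at 6 h in A549, an established human lung adenocarcinoma line, with the 2 glucose conditions pooled. It takes the 6 libraries labelled siATF6 at 6 h and the 6 labelled siControl, the non-targeting siRNA (NT), at 6 h, 12 of the 36 libraries of the series. All cells were transfected with siRNA at 100 nM, divided a day later between 2 wells, and a further day later changed to medium with either 25 mM or 0 mM glucose, both with dialysed serum and glutamine. Each siRNA therefore had 3 biological replicates and each replicate had 1 well in either medium, so that the 2 wells of a replicate share 1 transfected culture. Pooling the wells makes the contrast independent of which well is labelled 0 mM, which is doubtful for replicate 2. The knockdown was transient in 1 cell line, and the sources do not say whether the ATF6 siRNA was 1 sequence or a pool.

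ATF6 is a membrane-bound transcription factor of the endoplasmic reticulum (ER). When unfolded proteins build up it travels to the Golgi, where the proteases MBTPS1 and MBTPS2 release its cytosolic fragment. The fragment enters the nucleus and there, together with NF-Y, activates genes for ER chaperones and for ER-associated degradation. ATF6 works beside the other sensors of the unfolded protein response, IRE1 (gene ERN1), which splices XBP1 mRNA, and PERK (gene EIF2AK3), which raises ATF4 translation. Glucose is needed for N-glycosylation, so its removal is a known trigger of the response.

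In units of 1e6 counts, the libraries held 39.4 to 78.7 and the summed cultures 92 to 144. Keratins KRT8, KRT18 and KRT7, markers of epithelial cells, were abundant in all 12 libraries, with KRT8 at 2501 to 5474 CPM (counts per 1e6 counts of the library), while EPCAM was low at 1.88 to 7.83 CPM. CD3E and CDKN2A, the latter lying in the region deleted in A549, had no count in any library. For counting error only, this allows up to 0.0381 to 0.0762 CPM depending on depth. In the same region MTAP was counted, at 0.512 to 0.831 CPM with siControl and 0.406 to 0.508 CPM with siATF6. CDKN2B there reached at most 0.0732 CPM. The summed level of 14 markers of other cell types was 43.9 to 87.4 CPM with siControl and 29 to 60.7 CPM with siATF6, most of it COL1A1 and CD68.

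ATF6 itself (ENSG00000118217, chr1:161766320-161964070, GRCh38, plus strand) was measured at 45.9 to 64.6 CPM in the 6 siControl libraries, with a median of 58.4, and at 6.09 to 17.8 CPM in the 6 siATF6 libraries, with a median of 12.5. Every siATF6 library lay below every siControl library, and the knockdown was deepest in both wells of replicate 2. Summed by culture, the means were 57.6 ± 3.5 CPM for siControl and 11.9 ± 4.2 CPM for siATF6 (SD, n = 3 cultures each). In the comparison of 3 cultures with 3, without regard to replicate number, the log2 fold change was -2.24 with an edgeR adjusted p of 0.0575. With the replicate number as a block it was -2.29 (SE 0.16, adjusted p = 0.00148), a 4.91-fold lower level. At 16 h, in other libraries and without the block, ATF6 was 2.54 lower on the log2 scale.

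How many genes passed depended on the block. Without it, 2 of 18538 genes tested (0.0108%) passed an adjusted p of 0.05 in edgeR, although 3038 genes (16.4%) had an unadjusted p under 0.05. Those 2 were MAP2, a microtubule-associated protein of neurons, at -1.69 (adjusted p = 0.0348), and the transcript AL121827.2 at -2.19 (adjusted p = 0.0321), both lower. Same-numbered cultures deviated together, so the replicate number pairs the cultures, and with it as a block 3895 genes (21%) passed, 1767 higher (9.53%) and 2128 lower (11.5%) with siATF6. The blocked count was 2608 of 18700 genes tested without the replicate 1 cultures and 4607 of 18834 without those of replicate 2. It was 946 of 18845 without the replicate 3 cultures, and 927 of those 946 were among the 3895. Counts of list members without a replicate are to be read beside these totals. Of all genes tested, 547 (2.95%) lay lower and 285 (1.54%) higher in every siATF6 library than in any siControl library. The words rose and fell are used for genes that passed the blocked edgeR test. Log2 fold changes at 6 h are blocked values unless stated, and those at 16 h come from the fit without the block. The shares of all genes tested, 9.53% higher and 11.5% lower, are the background for the list counts at 6 h below.

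ER chaperones of the HSP70 and HSP90 families and their co-chaperones included 10 of 22 members that fell and none that rose, with a list median of -0.16 against -0.0036 for all genes tested. CRELD2, a secreted ER-stress protein with isomerase activity, fell by 1.28 (SE 0.07, adjusted p = 0.000321). Its cultures read 135, 100 and 87.9 CPM with siControl and 57.9, 35.4 and 37.5 CPM with siATF6 for replicates 1 to 3, so the cultures did not overlap. Its libraries did, at 22.0 to 219 CPM with siControl and 14.8 to 96.2 CPM with siATF6. SDF2L1, part of the BiP-containing chaperone complex, fell by 0.87, the co-chaperone DNAJC3 by 0.64, and HSP90B1 (GRP94), the HSP90 of the ER, by 0.54. CRELD1, DNAJB11, HYOU1, MANF, HSPA5 and DNAJB9 were the remaining 6, between -0.58 and -0.24. Among the members that did not pass were the collagen chaperone SERPINH1 at -0.04 and the cyclophilin PPIB at -0.10. At 16 h, with the block, 11 members were lower and 5 higher, where 21.4% and 19.8% of all genes tested were.

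HSPA5 encodes BiP, the main HSP70 of the ER and a classical ATF6 target. Summed by culture it read 3433, 2321 and 2311 CPM with siControl against 2473, 1492 and 1858 CPM with siATF6, a change of -0.44 (SE 0.07, adjusted p = 0.00646). The wells of each culture differed far more than the siRNAs did. In the wells labelled 0 mM, siControl read 5299, 720.2 and 4334 CPM and siATF6 4001, 731.3 and 2839 CPM for replicates 1 to 3. Those labelled 25 mM read 1021, 3434 and 795.4 CPM with siControl and 1206, 2028 and 960.5 CPM with siATF6. Replicate 2 thus ran against its glucose labels with both siRNAs, and siATF6 was below siControl in 3 of 6 well pairs, those in which HSPA5 was high. A sum of counts is dominated by such wells. The share of a culture's counts from the well labelled 25 mM was 43.6%, 59% and 57.2% for siControl in replicates 1 to 3. For siATF6 it was 54.7%, 58.7% and 52.2%. The part of these shares in the summed values was not tested. With both wells weighted equally the HSPA5 change was -0.17 (limma, adjusted p = 0.088) and did not pass.

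The same weighting moved many ER genes, and the plot of summed and equally weighted values shows it for the 27 folding and degradation genes that fell. All 27 lay closer to 0 with equal wells. HERPUD1, an adaptor of the degradation machinery, went from -0.70 to -0.21 (adjusted p = 0.0394) and was lower in 3 of 6 well pairs. CRELD2 went to -0.88, SDF2L1 to -0.57 and HYOU1 to -0.26, and these still passed, as did HSP90B1 at -0.41. With equal wells 8 chaperone members were lower and 1 was higher, FKBP11 at 0.24. Whether the siATF6 effect depended on glucose was not tested at 6 h, since the glucose labels of replicate 2 are in doubt.

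**Figure D1:**
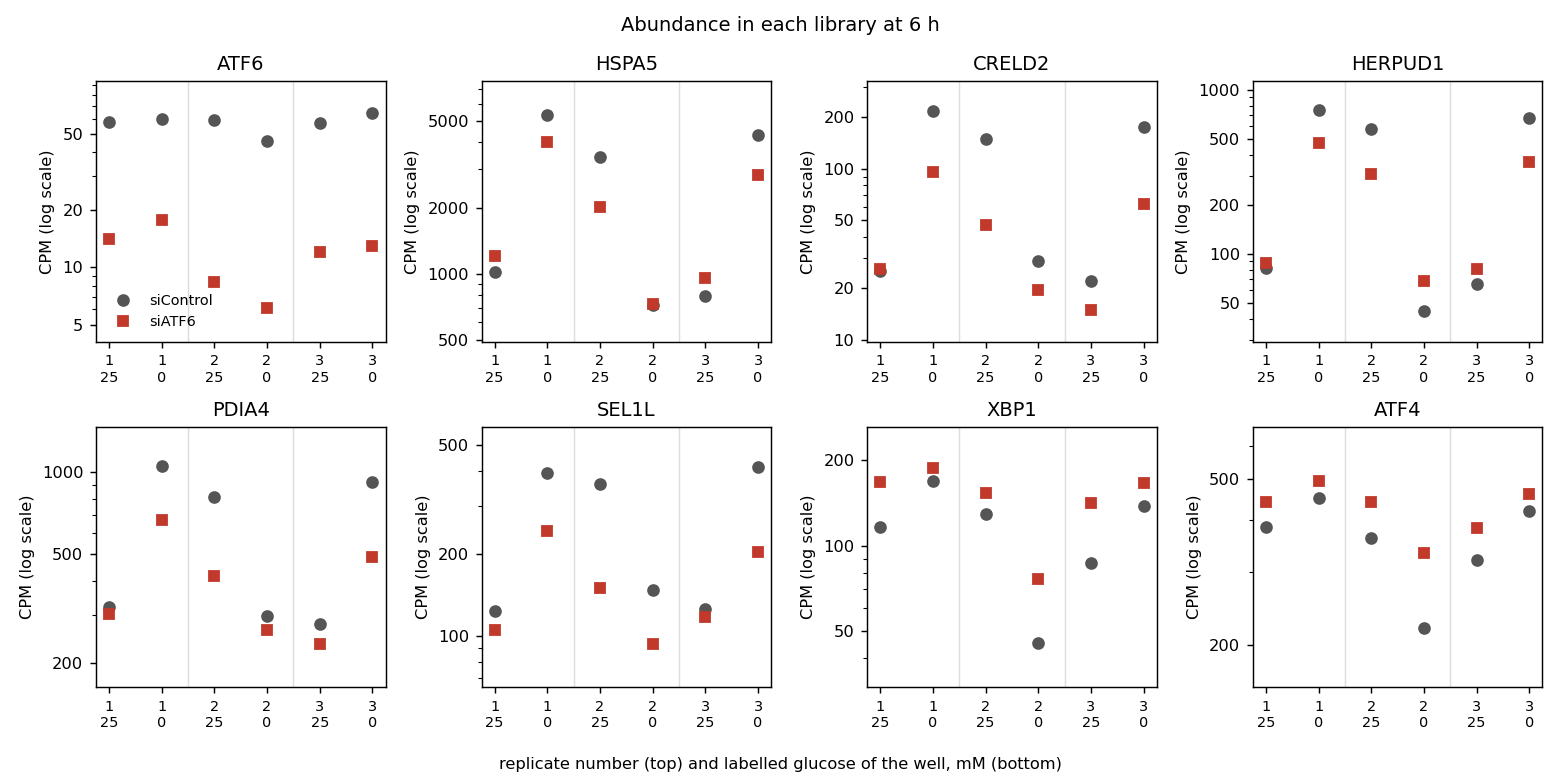
CPM (log axis) of 8 genes in each of the 12 libraries at 6 h, grouped by replicate and labelled glucose; grey circles are siControl and red squares siATF6. ATF6 is lower with siATF6 in all 6 well pairs, whereas HSPA5 and HERPUD1 are lower only in the 3 pairs where they are high.

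**Figure D2:**
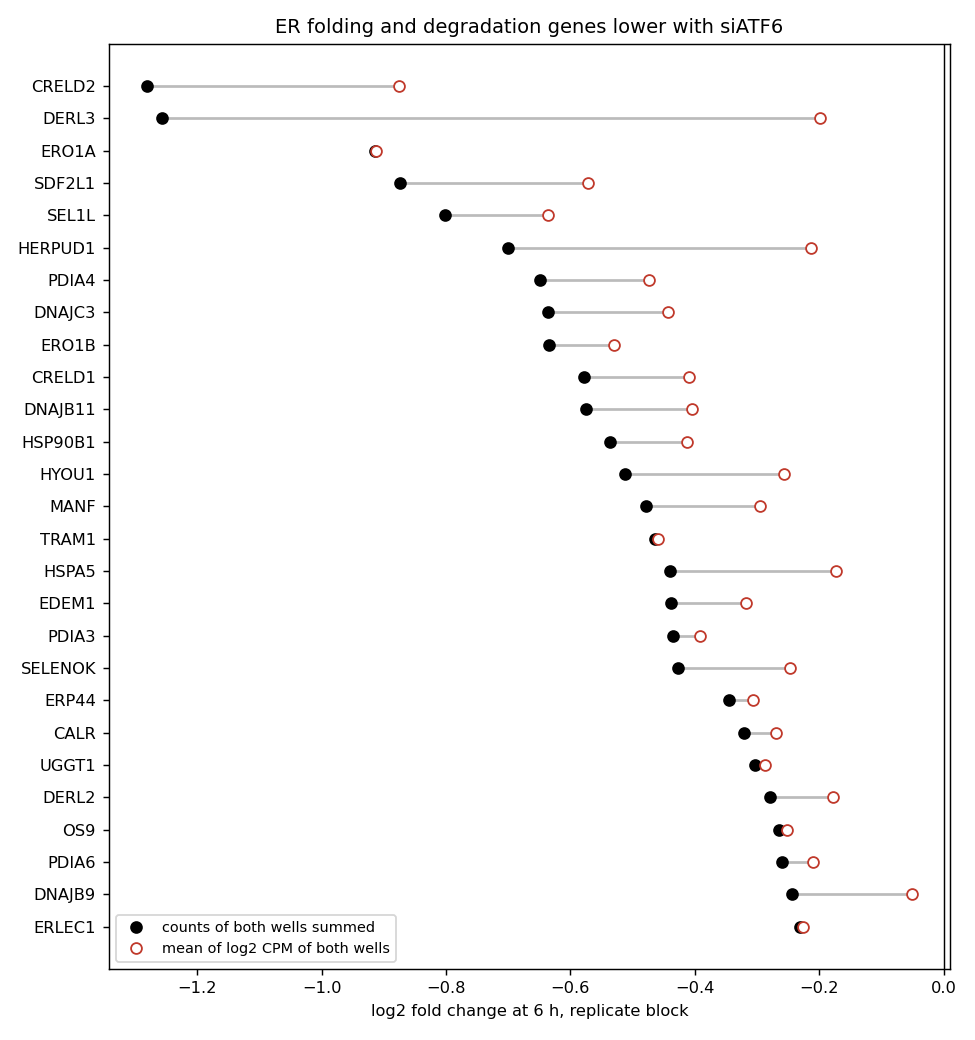
Blocked log2 fold change at 6 h of the 27 ER folding and degradation genes that fell, with the counts of both wells summed (black) and with the log2 CPM of both wells averaged (open red). All 27 open points lie nearer to 0, with HSPA5 moving from -0.44 to -0.17 and ERO1A hardly moving.

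The promoters of some of these genes carry the letters of the ER stress response element, to which NF-Y and ATF6 or XBP1 are known to bind. Its letters, CCAAT and CCACG separated by 9 bases of any kind and read on either strand, were searched in the 250 bases before each RefSeq start site (GRCh38.p14) and found in 26 of 35116 promoters, 0.074%. Counted by gene, with any of its promoters, 25 of 27305 (0.0916%) held them. Among chaperone genes with a promoter in the table, 3 of 19 held them, HSPA5, HSP90B1 and CRELD2, and all 3 fell. They were 3 of the 10 such chaperone genes that fell. XBP1, which rose, held them as well. The 4 promoters are shown because they belong to genes that moved in opposite directions under the same siRNA; capitals mark the element, which HSP90B1 carries on both strands and CRELD2 on the strand opposite to the one printed.
HSPA5: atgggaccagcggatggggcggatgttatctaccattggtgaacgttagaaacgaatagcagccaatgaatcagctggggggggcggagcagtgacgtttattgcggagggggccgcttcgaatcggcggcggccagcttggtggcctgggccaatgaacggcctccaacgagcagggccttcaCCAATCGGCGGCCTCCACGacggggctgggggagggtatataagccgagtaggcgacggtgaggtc
HSP90B1: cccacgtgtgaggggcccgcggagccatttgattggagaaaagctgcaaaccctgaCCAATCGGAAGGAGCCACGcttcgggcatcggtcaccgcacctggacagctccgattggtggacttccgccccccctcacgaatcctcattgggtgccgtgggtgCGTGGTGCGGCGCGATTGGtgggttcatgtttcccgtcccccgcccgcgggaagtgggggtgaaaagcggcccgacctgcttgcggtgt
CRELD2: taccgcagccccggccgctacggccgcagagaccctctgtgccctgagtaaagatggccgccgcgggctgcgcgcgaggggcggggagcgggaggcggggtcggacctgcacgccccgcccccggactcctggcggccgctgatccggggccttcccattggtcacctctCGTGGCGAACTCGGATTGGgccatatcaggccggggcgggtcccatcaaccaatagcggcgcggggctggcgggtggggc
XBP1: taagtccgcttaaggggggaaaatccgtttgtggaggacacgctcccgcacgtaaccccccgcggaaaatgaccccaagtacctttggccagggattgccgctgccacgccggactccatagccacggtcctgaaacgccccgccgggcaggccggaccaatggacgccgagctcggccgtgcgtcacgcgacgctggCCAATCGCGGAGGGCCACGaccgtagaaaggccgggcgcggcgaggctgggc
These stretches lie at chr9:125241344-125241593 on the minus strand for HSPA5, chr12:103930160-103930409 on the plus strand for HSP90B1, chr22:49918384-49918633 on the plus strand for CRELD2 and chr22:28800570-28800819 on the minus strand for XBP1. A match of letters is a description and not a measured binding site. Of the 12064 tested genes with a listed promoter, 16 (0.133%) held the letters, 9 of 1557 (0.578%) that fell and 2 of 1371 (0.146%) that rose. CANX, the membrane lectin calnexin, held them too and stood at -0.0015 (adjusted p = 0.988). By list, 2 of 17 disulfide and 2 of 14 lectin genes held them. They were in none of 19 degradation, 29 translocon and 34 COPII and COPI genes.

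Disulfide isomerases and oxidases, which form and shuffle disulfide bonds in the ER, included 6 of 19 that fell and 1 that rose. Among all genes tested 11.5% fell and 9.53% rose. PDIA4 read 732, 602 and 555 CPM with siControl and 468, 354 and 356 CPM with siATF6, a fall of 0.65 (SE 0.05, adjusted p = 0.000817) that was seen in all 6 well pairs. The oxidases ERO1B and ERO1A fell by 0.64 and 0.91, and the isomerases PDIA3, ERP44 and PDIA6 by 0.43, 0.34 and 0.26. ERO1A, also a hypoxia-induced gene, was lower in every siATF6 library than in any siControl library. The Golgi oxidase QSOX2 rose by 0.19, and P4HB, the archetypal isomerase, stood at -0.01. Without the replicate 3 cultures, 3 members passed with a lower value.

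In the lectin and glycan quality-control list 5 of 15 members fell and none rose, with calreticulin (CALR) at -0.32, the glucosyltransferase UGGT1 at -0.30, the degradation lectin OS9 at -0.26, EDEM1 at -0.44 and ERLEC1 at -0.23. Without replicate 3, 1 passed, without replicate 1, 2 passed, and with equal wells 3 passed. EDEM1, lower in 4 of 6 well pairs, stood at -0.32 with equal wells (adjusted p = 0.0851, limma). ER-associated degradation had 6 of 25 lower members and 1 higher, UBXN6 at 0.23. For both lists the shares of all genes tested were 11.5% lower and 9.53% higher. SEL1L, the scaffold of the HRD1 ubiquitin ligase, read 277, 274 and 250 CPM with siControl and 167, 126 and 158 CPM with siATF6, a fall of 0.80 (SE 0.08, adjusted p = 0.0017). It was lower in all 6 well pairs and remained at -0.64 with equal wells. SYVN1, the HRD1 ligase itself, stood at -0.16 (adjusted p = 0.104). TRAM1, a translocation accessory protein, fell by 0.46, SELENOK by 0.43, and the derlins DERL2 and DERL3 by 0.28 and 1.26, DERL3 standing at -0.20 with equal wells.

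Of 34 translocon, signal peptidase and oligosaccharyltransferase genes 4 fell and 2 rose, where 11.5% and 9.53% of all genes tested did. Among those that fell were SEC61A2 at -0.66 and the oligosaccharyltransferase subunits TUSC3 at -0.37 and MAGT1 at -0.34. In the siATF4 libraries at 6 h, with 1 of low depth left out, SEC61A2 lay at 13.7 to 15.8 CPM. Its siControl libraries read 17.8 to 24.6 CPM. MAGT1 lay at 75 to 189 CPM with siATF4, against 81.4 to 191 CPM with siControl. SRPRA rose by 0.27 and SRP68 by 0.26. None of this list was higher without replicate 1 or without replicate 3, and 5 were with equal wells. Of 39 COPII and COPI coat and transport genes only BET1, a SNARE, passed, at 0.25. The 11 genes of ATF6 transport and processing held 2 that fell, THBS1, a secreted ATF6 partner, at -0.76 and WFS1 at -0.25, while the proteases MBTPS1 and MBTPS2 stood at 0.11 and -0.01. In this list 1 gene was lower without replicate 1 and none without replicate 3.

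Of 16 stress sensors and their transcription factors 5 rose and 2 fell, where 9.53% and 11.5% of all genes tested did. The share that fell is near that of all genes and includes ATF6, the siRNA target. Without replicate 3, 2 were higher and 2 lower. XBP1 read 147, 94.8 and 109 CPM with siControl and 177, 122 and 153 CPM with siATF6, and rose by 0.41 (SE 0.06, adjusted p = 0.00551), higher in 6 of 6 well pairs although the 2 groups of libraries overlapped. ERN1 rose by 0.41, the NF-Y subunit NFYC by 0.43, ATF4 mRNA by 0.28 (adjusted p = 0.0254) and ATF6B, the paralogue of ATF6, by 0.23 (adjusted p = 0.0331). ATF6B cultures read 50.6, 45.9 and 48.1 CPM against 55.7, 54.6 and 54.8 CPM. EIF2AK3 stood at -0.06, and its downstream factor DDIT3 (CHOP) fell by 0.77, from 167 ± 29 to 97 ± 26 CPM (SD, n = 3). With equal wells DDIT3 was at -0.25 (adjusted p = 0.02), and it was lower in 3 of 6 well pairs. In GENCODE 29, 39.6% of the DDIT3 exon length overlaps the MARS gene, and the libraries were not stranded.

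Many genes known to lie downstream of ATF4 were higher as well. Among 20 stress regulators 12 rose and none fell, with a list median of 0.36, and 12 were higher in all 6 well pairs against 12.5% of all genes tested. DDIT4, an inhibitor of mTORC1, rose by 0.58 from 335 ± 63 to 484 ± 57 CPM (SD, n = 3, adjusted p = 0.00175). The hormone GDF15 rose by 0.56, the factor CEBPB by 0.45, the glutathione-degrading enzyme CHAC1 by 0.59, SESN2 by 0.47 and STC2 by 0.51. ATF3 at -0.06 and TRIB3 at 0.20 did not pass. Without replicate 3, 4 of the regulators passed. In 5 siATF4 libraries at 6 h, given only for reference and leaving out 1 of low depth, DDIT4 lay at 117 to 281 CPM and ATF4 at 110 to 213 CPM.

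Amino acid synthesis and one-carbon enzymes had 8 of 19 higher members and 1 lower, MTHFD1L at -0.18. SHMT2, the mitochondrial serine hydroxymethyltransferase, rose by 0.55, asparagine synthetase ASNS by 0.52 and the serine-pathway enzyme PSAT1 by 0.37. Of 13 amino acid transporters 5 rose, including SLC1A5 at 0.33 and SLC38A2 at 0.28. Of 20 cytosolic aminoacyl-tRNA synthetases 10 rose and none fell, between 0.29 and 0.35 for MARS1, AARS1, YARS1 and EPRS1. In these 3 lists no member was higher past the threshold without replicate 3, and 6 of the synthetases were without replicate 1. Part of the exons of DDIT4 (41.2%) and ASNS (44.6%) overlaps other genes, mostly DDIT4-AS1 and AC079781.5.

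**Figure D3:**
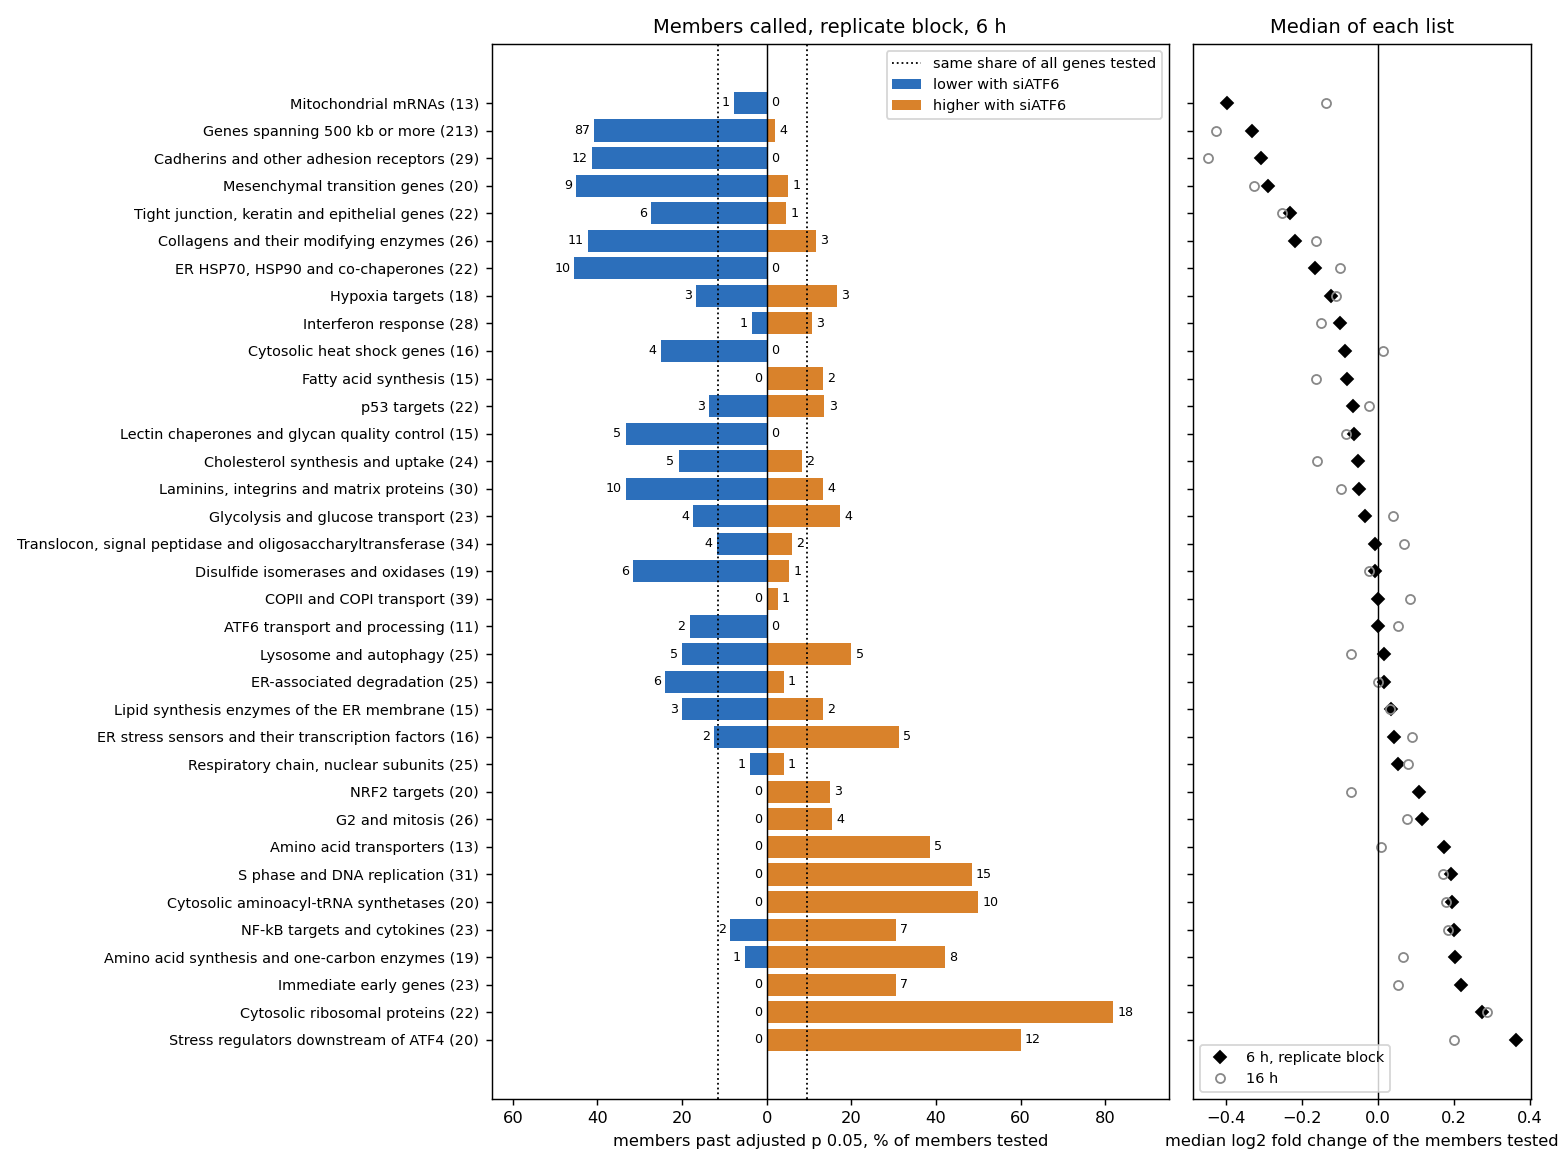
Left, share of each list's tested members (number in brackets) that fell (blue) or rose (orange) with siATF6 at 6 h in the blocked test, with the count beside each bar and dotted lines at the shares of all genes tested, 11.5% and 9.53%. Lists of cell type markers and of genes in the region deleted in A549 are not plotted. Right, median log2 fold change of each plotted list at 6 h (blocked, diamonds) and 16 h (without the block, circles). At 6 h the medians ran from -0.40 for the mitochondrial mRNAs to 0.36 for the regulators downstream of ATF4.

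Other genes with large changes were named by size after their values were seen. CDH4 (R-cadherin) read 58.5, 43.7 and 49.9 CPM with siControl and 22, 15.1 and 12.9 CPM with siATF6, a fall of 1.59 (SE 0.11, adjusted p = 0.000619), and no library overlapped. MAP2 read 7.24, 8.33 and 8.44 CPM against 2.62, 2.22 and 2.4 CPM. PDGFB, a growth factor for mesenchymal cells, fell by 1.68 from 26 ± 7.9 to 8.04 ± 3 CPM (SD, n = 3). The libraries of MAP2 and PDGFB did not overlap either. The bicarbonate transporter SLC4A8 fell by 2.10, the vesicle protein SYT11 by 1.96, NKAIN4 by 1.92, the adhesion proteins FLRT2 and SDK1 by 1.70 and 1.62, DCDC1 by 1.64, and integrin subunit ITGB8 by 1.50. In the 5 siATF4 libraries at 6 h, SLC4A8 lay at 3.47 to 4.54 CPM and MAP2 at 4.48 to 6.23 CPM. With siControl these read 6.78 to 15.8 and 6.57 to 8.9 CPM. CDH4 lay at 46.4 to 67.6 CPM with siATF4, against 38.7 to 64.1 CPM with siControl. ZNF365, of which 31.1% of the exon length overlaps AC024598.1, and AC055839.2 were at -1.62 and -1.61. TVP23C-CDRT4 was at -1.60, but its exons overlap those of TVP23C in full, so its counts are uncertain.

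Of 29 cadherins and other adhesion receptors 12 fell and none rose, with a median of -0.31, and 16 were lower in all 6 well pairs against 18.7% of all genes. CDH6 fell by 1.13, N-cadherin (CDH2) by 0.43, CADM1 by 0.48 and ALCAM by 0.41, while E-cadherin (CDH1) stood at -0.32 (adjusted p = 0.214). Of 26 collagens and their modifying enzymes 11 fell and 3 rose. COL1A1, a fibrillar collagen chain that is also among the markers of other cell types, read 15.4, 34.9 and 19.3 CPM with siControl and 7.71, 15.6 and 7.76 CPM with siATF6, a fall of 1.12 (SE 0.08, adjusted p = 0.000603). COL5A1, COL4A3 and COL18A1 fell by 1.07, 1.07 and 0.79, and COL16A1, COL6A2 and the lysyl hydroxylase PLOD2 rose by 0.52, 0.43 and 0.29. Whether other cells had a part in these values was not tested. Of the fibroblast markers, COL1A2 and DCN reached at most 0.0339 and 0.0508 CPM and PDGFRB at most 0.394 CPM. LUM read 0.938 to 1.56 CPM with siControl and 0.523 to 1.15 CPM with siATF6. COL3A1 read 0.185 to 1.61 CPM with siControl and 0.182 to 0.635 CPM with siATF6.

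Laminins, integrins and other matrix proteins held 10 of 30 members that fell, among them the matricellular SPARC at -1.18, nidogen NID1 at -0.82 and ITGAV at -0.44, and 4 that rose, the laminin chains LAMA3 at 0.41 and LAMC1 at 0.42 and the integrins ITGA3 at 0.41 and ITGA2 at 0.32. Genes of the mesenchymal transition, many of them targets of TGF-beta, held 9 of 20 that fell and 1, ZEB2 at 0.48, that rose. The receptor TGFBR1 fell by 0.86, its ligand TGFB2 by 0.69, and the YAP targets CCN1 and CCN2 by 0.90 and 0.52. Vimentin (VIM) was at 0.19 and SNAI2 at -0.28, neither passing. In the tight junction and epithelial list 6 of 22 fell, including occludin (OCLN) at -0.29, and claudin CLDN2 rose by 0.50. Without replicate 3, 6 adhesion receptors, 6 collagen genes, 3 laminin, integrin and matrix genes, 7 mesenchymal genes and 1 epithelial gene were lower.

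The share of genes that fell differed with their length in the genome. Of 213 tested genes that span 500 kb or more, 87 fell (40.8%) and 4 rose, with a median of -0.33, against 319 of 5291 genes under 10 kb that fell (6.03%) and 528 (9.98%) that rose. The share that fell was 9.63% at 10 to 50 kb, 12.5% at 50 to 100 kb and 22.6% at 100 to 500 kb. The adhesion receptors have a median span of 106 kb and the collagen list 98.9 kb, against 12.3 kb for the ER chaperones and 5.5 kb for the ribosomal proteins. Of the 12 adhesion receptors that fell, 3 span 500 kb or more. The part of gene length in these results was not tested. Without replicate 3, 42 of the long genes were lower.

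Genes that rose by the most had varied functions. AQP3, a channel for water and glycerol, rose by 1.76 (SE 0.11, adjusted p = 0.000321), from 2.9, 6.07 and 9.18 CPM to 12.1, 17.6 and 28.1 CPM in replicates 1 to 3. CST1, a cystatin, rose by 1.73, from 2.23 ± 0.9 to 7.29 ± 3.1 CPM (SD, n = 3). For both, every siATF6 library lay above every siControl library. The gelatinase MMP9 rose by 1.71 with wider error (SE 0.32), the largest difference being in replicate 2, where the culture read 12.9 CPM against 2.42 CPM. KLF2 rose by 1.17, the scramblase-family gene PLSCR4 by 1.12, DHRS2 by 1.11, RMI2 by 1.03, lamin LMNB1 by 1.00, spermine oxidase SMOX by 0.98, FCGBP by 0.95, and FRMD3 and the urea-cycle enzyme CPS1 by 0.93 each. In the 5 siATF4 libraries at 6 h, PLSCR4 lay at 8.41 to 11.1 CPM and LMNB1 at 97.3 to 155 CPM. With siControl these read 4.26 to 6.11 and 41.85 to 86.95 CPM. RMI2 lay at 25.9 to 42.95 CPM with siATF4, against 12.7 to 28.1 CPM with siControl. AQP3 at 3.59 to 12.3 CPM and CST1 at 1.36 to 2.71 CPM with siATF4 overlapped siControl, at 2.14 to 9.3 and 1.1 to 3.32 CPM. Which rises are particular to siATF6 was not tested. SULT1A3 at 1.10 and AL135905.2 at 0.97 share 70.7% and 89.8% of their exon length with SLX1A-SULT1A3 and PTP4A1, so their counts are uncertain.

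TRAF1, an adaptor induced by NF-kB, rose by 1.32 (SE 0.28, adjusted p = 0.0396), and 7 of 23 NF-kB targets and cytokines rose with 2 lower. NFKB2, the p100 subunit, read 231, 190 and 160 CPM with siControl and 354, 404 and 315 CPM with siATF6, a rise of 0.93 with no overlap of libraries. BIRC3 rose by 0.76 and RELB by 0.53, while the chemokine CCL2 and the cytokine CSF1 fell by 0.39 and 0.24. Of 23 immediate early genes 7 rose and none fell, with DUSP6 and SPRY4 at 0.54 each. Without replicate 3, 3 of the NF-kB list and 2 of the immediate early genes were higher. Of 28 interferon-response genes 3 rose and 1 fell, where 9.53% and 11.5% of all genes tested did. Neither direction had a call without replicate 3.

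Of 31 S phase and replication genes 15 rose and none fell, with MCM5 at 0.47, MCM2 at 0.39 and CDC45 at 0.35. Of 26 G2 and mitosis genes 4 rose, with PLK1 at 0.64 (1 without replicate 1 and 2 without replicate 3). In the 5 siATF4 libraries at 6 h, MCM5 lay at 126 to 193 CPM and CDC45 at 36.35 to 39.8 CPM. With siControl these read 85.5 to 167 and 29.15 to 33.8 CPM. PLK1 lay at 152 to 221 CPM with siATF4, against 90.3 to 165 CPM with siControl. Whether these rises are particular to siATF6 was not tested. Of 22 cytosolic ribosomal proteins 18 rose by a small amount, the list median being 0.28, and RPS18 read 466, 443 and 433 CPM against 553, 582 and 550 CPM without overlap of libraries. Without replicate 3, 3 of the S phase genes and none of the ribosomal proteins passed, and without replicate 1 the counts were 9 and 10. All 13 mitochondrial mRNAs had values below 0, with a median of -0.40, but only MT-ND6 passed, at -0.75 (SE 0.15, adjusted p = 0.0229). Of these 13, 10 were lower past the threshold without replicate 2, none without replicate 1 or replicate 3, and 2 with equal wells.

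Of 23 glycolysis and glucose transport genes 4 fell, the fructose-2,6-bisphosphate enzymes PFKFB3 at -0.64 and PFKFB4 at -0.57, the transporter SLC2A1 at -0.50 and ENO2 at -0.25, and 4 rose, of which SLC16A1, a lactate transporter, was at 0.54 and GAPDH at 0.25. PFKFB3 read 568, 619 and 639 CPM with siControl and 378, 365 and 401 CPM with siATF6, without overlap of libraries. Lysosome and autophagy genes had 5 of 25 in each direction, with WIPI1, a phosphoinositide-binding autophagy protein, at -1.21 and CTSL, NPC1 and the autophagy receptor SQSTM1 at 0.56, 0.55 and 0.57. Cholesterol synthesis and uptake had 5 of 24 lower, among them the mevalonate pathway enzyme MVD at -0.41 and the sterol transfer protein STARD4 at -0.56, and 2 higher, with the synthase FDPS at 0.18. STARD4 was lower in 4 of 6 well pairs and stood at -0.26 with equal wells (adjusted p = 0.212, limma) and at -0.02 in the wells labelled 25 mM. In the list of ER membrane lipid enzymes 3 of 15 fell, with choline kinase CHKA at -0.58, and 2 rose, with the acyltransferase GPAT3 at 0.75. Without replicate 3, 3 of the glycolysis, 1 of the lysosome and 1 of the cholesterol genes were lower, and 0, 2 and 0 were higher. Smaller numbers passed in other lists, set beside 9.53% of all genes tested that rose and 11.5% that fell. In each direction these were 3 of 22 p53 targets, 3 of 18 hypoxia targets and 1 of 25 nuclear respiratory-chain subunits. Higher were 3 of 20 NRF2 targets and 2 of 15 fatty acid synthesis genes. Lower were 4 of 16 genes in the list named cytosolic heat shock genes. That list includes HSPD1, a mitochondrial chaperonin, which was among the 4. Without replicate 2, 10 of the NRF2 targets were higher, and without replicate 3, 1 of the heat shock genes was lower. The p53 list had none higher and 1 lower without replicate 3, and 3 higher and 6 lower with equal wells. The hypoxia list had none higher and 2 lower without replicate 3.

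**Figure D4:**
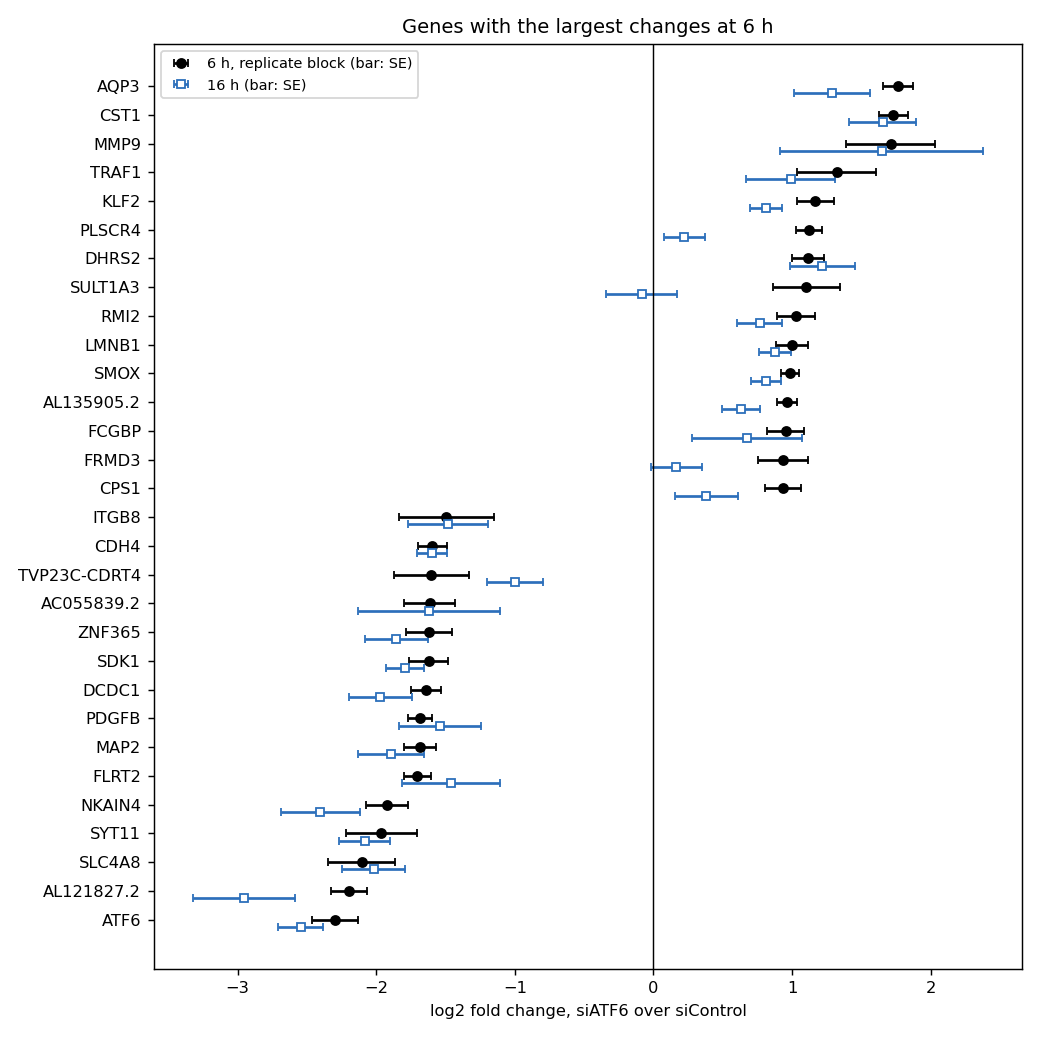
Log2 fold change (siATF6 over siControl) with its standard error for the 15 genes with the largest rise and the 15 with the largest fall at 6 h in the blocked test (black), and the same genes at 16 h without the block (blue). All 15 that fell also lie below 0 at 16 h, and PLSCR4, at 1.12 at 6 h, lies at 0.22 at 16 h.

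The 16 h libraries come from different wells and measure the same contrast. Whether same-numbered cultures of 6 h and 16 h share a transfection was not established here, so the times are not taken as independent. At 16 h 1782 of 18378 genes (9.7%) passed without the block, 739 higher (4.02%) and 1043 lower (5.68%), and 7573 (41.2%) with it, 3631 higher (19.8%) and 3942 lower (21.4%). The unblocked count was 0 without replicate 2 and 0 without replicate 3. Of the 3862 genes called at 6 h with the block and tested at 16 h, 3789 (98.1%) had the same sign at 16 h, against 80.7% of all 18033 genes tested at both times. With the block at both times 3292 genes were called at both, which is 85.2% of the 6 h calls and 43.6% of the 16 h calls, where 41.9% of the genes tested at both times were called at 16 h. Across genes, which are not independent replicates, the Pearson correlation of the log2 fold changes was 0.72, and 0.903 among the genes called at 6 h.

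By gene, without the block, CRELD2 was at -1.38 at 16 h, SEL1L at -0.99, PDIA4 at -1.03, HSP90B1 at -0.83, CDH4 at -1.60, AQP3 at 1.29 and CST1 at 1.66. XBP1 was at 0.08 at 16 h (edgeR adjusted p = 0.677 without the block and 0.247 with it). PLSCR4 was at 0.22 (0.396 without the block and 0.0693 with it). The test of the change from 6 h to 16 h called 0 of 19292 genes in edgeR, with 235 (1.22%) at an unadjusted p under 0.05, 0 with the block and 1 in DESeq2, so no gene is reported here as differing between the times. Within 6 h, the wells labelled 25 mM and those labelled 0 mM, tested separately with the block, called 2386 and 2919 of 16519 genes tested in both. They shared 1658 calls, all of the same sign, which is 69.5% and 56.8% of the calls. Of all genes tested in both, 81.6% had the same sign. The 2 wells of a culture share its transfection.

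**Figure D5:**
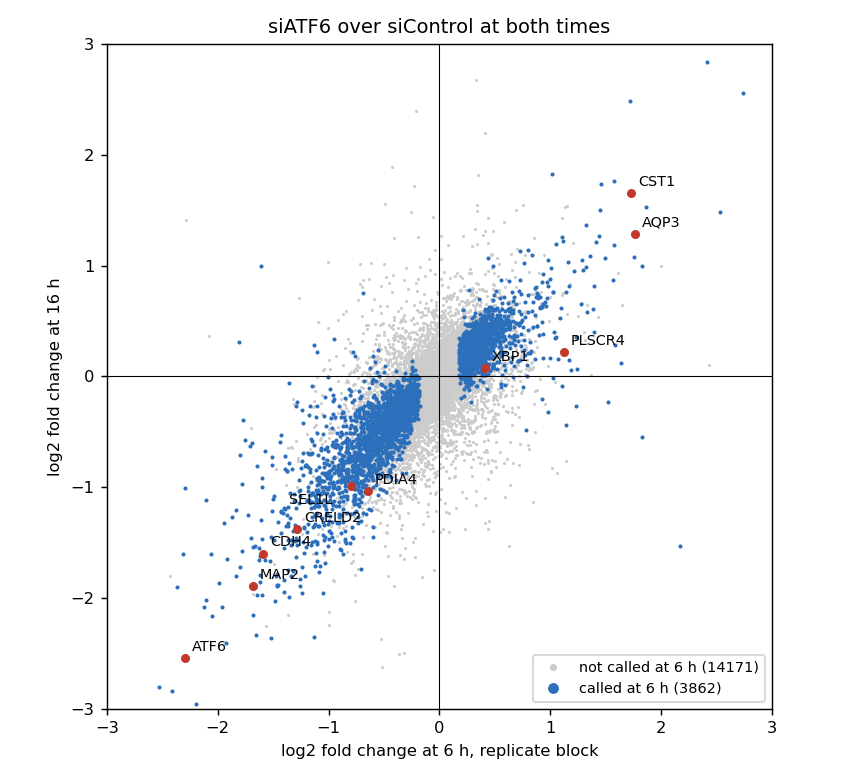
Log2 fold change of siATF6 over siControl at 6 h (blocked, horizontal) and at 16 h (without the block, vertical) for genes tested at both times. The 3862 called at 6 h are blue and 10 named genes are red. Beyond the limits of 3 lie 5 genes. Most blue points lie in the quadrants of equal sign, 98.1% of them, and XBP1 and PLSCR4 lie near 0 at 16 h.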

How the data were processed

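RNA from A549 cells was sequenced after poly(A) selection, without strand and as paired reads of 150 bases, per the labels' protocols. Per the submitters' processing notes, fastp, STAR and RSEM were used with GRCh38; versions and annotation release were not stated in the sources used here. The authors deposited an estimated count per gene made with RSEM, with gene names and coordinates, for 60662 gene IDs. These were rounded to whole counts and summed over the 2 wells of each transfected culture. CPM are counts per 1e6 counts of the library or culture and take no account of gene length.

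Genes were filtered with filterByExpr (minimum count 10, minimum total 15), normalized by TMM and tested with edgeR 4.0.16 (robust quasi-likelihood test, R 4.3.3) with Benjamini-Hochberg adjustment at 0.05, siATF6 against siControl, 3 cultures each. The planned fit has no block. At 6 h, deviations from the group means correlated between same-numbered siControl and siATF6 cultures at 0.616, 0.456 and 0.575, each above the 0.1 required. Between different numbers they correlated at -0.381 to -0.162. Deviations were taken from each siRNA's own mean, so they cancel within a siRNA. Negative values between different numbers therefore follow from positive same-number ones and are no separate evidence for the pairing. The 16 h values were 0.691, 0.386 and 0.403 for the same number and -0.529 to 0.349 for different numbers. Replicates 2 and 3 at 16 h correlated with each other at 0.266 and 0.349, so the number separates them less clearly there. The number is the biological replicate of the labels, and the fit with it as a block was therefore reported beside the planned one. DESeq2 1.42.0, limma 3.58.1 with a prior count of 2 (mean log2 CPM of both wells), other scalings, no filter, single libraries, single glucose labels and leaving out replicates were alternatives.

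Named genes are up to 15 per direction with the largest fold change past 0.05, at least 5 CPM in a group and the same direction in all 3 pairs, ATF6, ATF6B, XBP1, ATF4 and HSPA5, and the members of each list with the smallest adjusted p. The rule was written for the planned fit, where it gave 2 genes, and was applied to the blocked fit after its values were seen; further list members were also named after their values were seen. The contrast and the 38 gene lists were chosen with earlier results of these data known. Lists are described by counts and medians. Exon overlaps are from GENCODE 29. Calculations were tested on simulated data. With 3 cultures per siRNA the spread is estimated from few samples, and p-values of the blocked fit rest on the pairing.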

Additional observations from a re-analysis of the deposited data

How the results depend on the processing

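The number of genes called at 6 h depended mainly on how replicates were handled. Against 2 in the planned fit, the replicate block, which uses the pairing of same-numbered cultures, gave 3895 calls, DESeq2 833, no filter on low counts 204, the 12 libraries entered singly 1321 (580 as the mean over the labelled glucose groups, 3172 with the block), a spread shared by all 36 libraries 48, one shared by the 12 cultures of both times 858, and the wells labelled 0 mM alone 0. Each fit that left out a replicate gave 0. With the block, the wells labelled 25 mM alone gave 2417 calls, and leaving out a replicate gave 946 to 4607. DESeq2 with the block gave 3631, of which 3349 were shared with the 3895, and equal wells 4137, of which 3727 were shared, all of the same sign. At 16 h DESeq2 gave 3052 calls, the block 7573, and leaving out a replicate 0 to 6002. The change between the times gave 1 call in DESeq2. Entering wells of 1 culture singly treats them as independent, which they are not; the cause of the other differences was not tested.

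ATF6 passed at -2.24 in DESeq2, -2.295 with the block, -2.24 with libraries singly, -2.24 as the mean over glucose groups, -2.30 singly with the block, -2.31 in the wells labelled 25 mM, -2.24 with all 36 libraries and -2.23 with both times. It ranged from -2.51 to -2.002 without a replicate. Of 181 genes followed, 6 changed sign in the planned fit without a culture. CCL2 ranged from -1.64 to 0.87, CSF1 from -0.78 to 0.26 (0.0086 and 0.0585 without siATF6 replicates 2 and 3), HSPA1A from -0.73 to 0.24, HSPA1B from -0.65 to 0.24 (0.0368 without siATF6 replicate 2), ITGA2 from -0.00098 to 0.56 and CLDN2 from -0.18 to 1.14. The part that depth plays in these limits was not tested, and each siRNA had 3 cultures.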
